A study of Drosophila melanogaster with 2 samples.

Results

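Mitochondrial ribosomal protein genes are described here by their place among the binding sites of Rx-eGFP in whole Drosophila melanogaster embryos. The members were the 73 protein-coding genes, of 13968 on the chromosome arms, whose symbol begins with mRpL or mRpS in Ensembl release 115 (BDGP6.54). They were chosen by name alone, with no measured value. By the letter in the symbol, 47 belong to the large subunit and 26 to the small subunit, and they lay on 2L (12), 2R (12), 3L (17), 3R (21) and X (11). There was 1 group, of embryos aged 0 to 24 h from the strain Rx-GFP, with 2 biological replicates. All embryos carried an insertion that makes Rx, a paired-class homeodomain protein, as a fusion with eGFP. Chromatin was sonicated to fragments of 200 to 800 bp and precipitated with an antibody against GFP, and binding was read out by sequencing. The labels' antibody field names Rx, and the text of the labels names GFP as what the antibody recognises. No label states which promoter drives the fusion or in which cells it is made, and whole embryos mix all cell types and stages of embryonic development. No embryos without the fusion were analysed here, and chromatin that is precipitated without the tagged protein cannot be told apart from its binding sites.

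The mitochondrial ribosome makes the few oxidative phosphorylation subunits that mitochondrial DNA encodes. Its RNAs come from that DNA, but all of its proteins are encoded in the nucleus, made in the cytosol and imported. Their genes are therefore scattered over the chromosomes, are mostly short, and are needed in nearly every cell. Rx, the product of the retinal homeobox gene, is known for roles in the embryonic head and brain. The rule by symbol leaves out 3 mitochondrial ribosomal genes with other names, tko, bonsai and CRIF, which are given with the other pathway genes.

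In the series-wide list called conservative, 29 of the 73 members had a peak summit inside them or at most 2 kb away (39.7%, 95% Wilson interval 29.3 to 51.2%), against 26.5% of all protein-coding genes. Such genes are called bound here. Replicate 1's own list gave 26 bound members (35.6%, 25.6 to 47.1%) against 21.3% of all genes, and replicate 2's gave 21 (28.8%, 19.7 to 40.0%) against 20.0%. With the summit within 500 bp of a start of the gene itself, the series-wide list gave 15 members (20.5%, 12.9 to 31.2%) against 13.2% of all genes. The same count was 15 against 10.4% of all genes in replicate 1 and 13 (17.8%, 10.7 to 28.1%) against 9.59% in replicate 2. The member share was above that of all genes in each list, but the share of all genes lay inside the members' interval for a summit at the own start in the series-wide list and for a summit within 2 kb in replicate 2. These intervals cover counting error over genes only. With 1 group of 2 samples, and with members chosen when earlier results of these data were known, no test was made.

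The shares were far below those of the cytosolic ribosomal protein genes. Of 93 such genes, 63 were bound (67.7%, 57.7 to 76.4%) and 54 had a summit at their own start (58.1%). The oxidative phosphorylation genes, whose products are assembled with those of the mitochondrial ribosome, were nearer to the members, with 21 of 66 bound (31.8%, 21.8 to 43.8%) and 14 with a summit at their own start (21.2%).

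**Figure D1:**
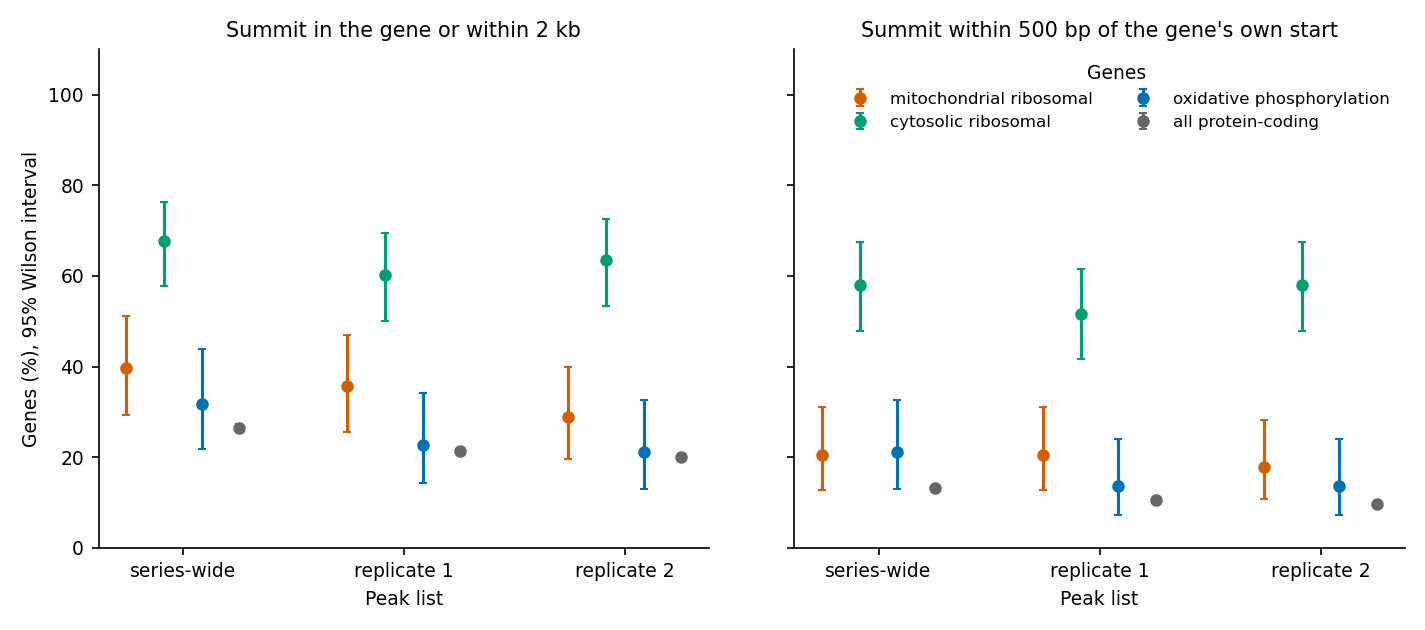
Share of genes (%, y axis) with a summit in the gene or within 2 kb (left panel) and within 500 bp of the gene's own start (right panel), in the series-wide list and in each replicate's list (x axis), with bars for 95% Wilson intervals. In the series-wide list the mitochondrial ribosomal genes lie at 39.7% and 20.5%, below the cytosolic ribosomal genes at 67.7% and 58.1%, and all protein-coding genes lie at 26.5% and 13.2%.

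Gene length, arm and arrangement differ between the members and the rest of the genome, and the counts were therefore also taken among like genes. The median member was 909 bp long, against 2164.5 bp for all genes, and 71 members were no longer than 2500 bp. Among those 71, 28 were bound (39.4%) and 15 had a summit at their own start (21.1%), against 19.0% and 9.92% of the 7774 genes of that length. On the arm 2L 8 of 12 members were bound, against 25.2% of all genes there. On X 3 of 11 members were bound, against 26.8% of all X genes, and none of the 11 had a summit at its own start, against 12.6% of X genes. A count of 0 of 11 allows a share of up to 25.9% (upper Wilson limit).

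Most members stood next to another gene's start. A divergent start, that is a start of another protein-coding gene on the opposite strand within 500 bp upstream, was present for 53 members (72.6%), against 27.3% of all genes, 39.8% of the cytosolic ribosomal genes and 54.5% of the oxidative phosphorylation genes. Among the genes with a divergent start, 21 of 53 members were bound (39.6%), against 39.1% of all such genes, and 13 had a summit at their own start (24.5%), against 26.7%. For genes that share a promoter region in this way, the members' shares were thus close to those of all genes with the same arrangement. Among such genes up to 2500 bp long, 34.1% were bound and 24.1% had a summit at their own start. Of the 20 members without a divergent start, 8 were bound (40.0%, 21.9 to 61.3%), against 21.7% of all such genes, but only 2, mRpL41 and mRpL4, had a summit at their own start (10%, 2.79 to 30.1%), against 8.08%. Among genes up to 2500 bp without a divergent start, 13.3% were bound, below the members' interval. A summit at the own start was present for 4.59% of them, inside the members' interval. The members' intervals have no such length limit. The 20 members include mRpS9 (13391 bp), which was bound, and mRpS5 (6299 bp), which was not.

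The bound members had 35 summits between them, of which 7 were nearest to a member's start. The counts below of nearest starts, shared promoters and places were not made over all genes. They therefore describe these summits and not a trait of the members. There were 16 within 500 bp of a member's start, and 15 of these lay upstream of it, at a median of 129 bp upstream. Over all genes, 86.4% of 1968 such summits were upstream, at a median of 130 bp. Of the 16, 7 were nearest to the member's own start, with that of mRpL53 tied between it and CG33155. Another gene's start lay within 500 bp as well for 14 of the 16, and 11 lay between the member and its divergent partner. None of the 15 summits of the 14 members that were bound in their 2 kb neighbourhood only was nearest to a member's start. Of the 19 summits away from member starts, 15 lay at the promoter of another gene, 3 in introns and 1 in intergenic sequence. The summit of the members just inside the 2 kb limit lay 1912 bp (mRpL46), 1922 bp (mRpL33) and 1934 bp (mRpL12) from the gene, and the nearest outside it lay 2805 bp (mRpL36) and 3103 bp (mRpL35) away. For 27 members no summit lay within 10 kb, while 63.0% of members had one, against 51.6% of all genes.

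**Figure D2:**
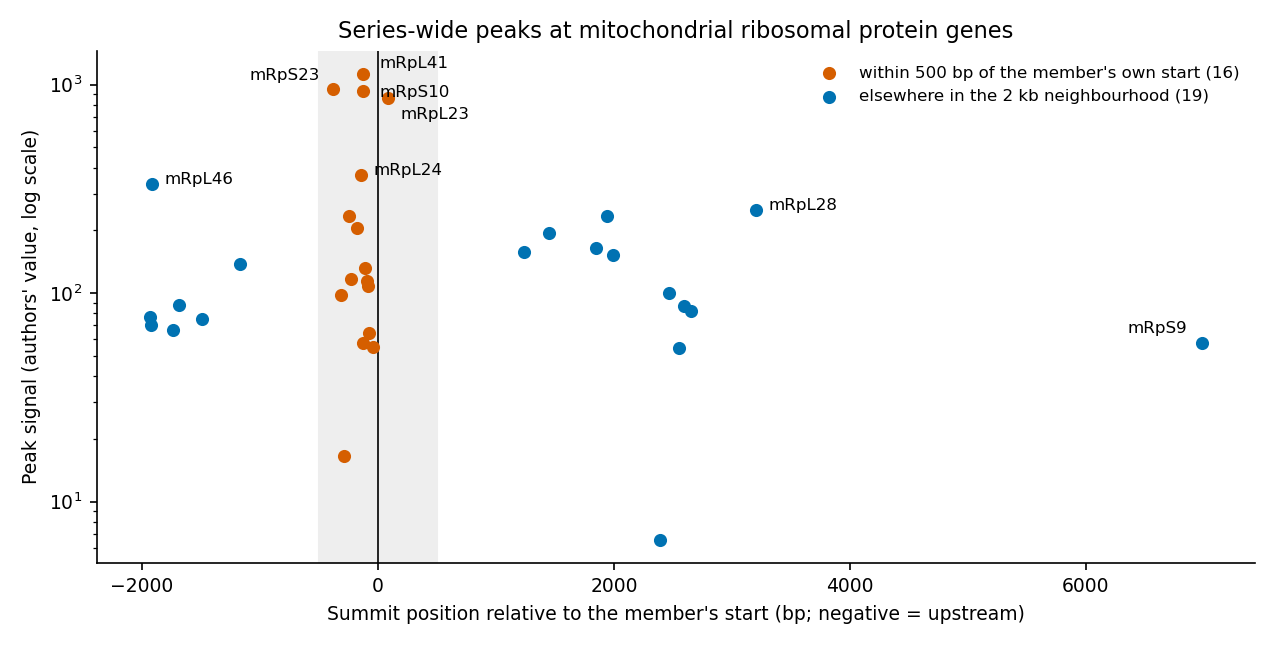
Authors' peak signal in the series-wide list (log scale, y axis) against the position of the summit from the member's start in bp, negative upstream (x axis), for the 35 summits of the 29 bound members. The shaded band marks 500 bp to each side of the start: it holds 16 summits, 15 of them upstream, and the 4 peaks above 800 all lie in it.

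The highest peaks at member starts ranked among the highest of the whole list. Peak heights are given as the signal that the authors deposited, on a scale that no source used here states, and the median over the 3250 peaks on the arms was 90.1. Of the 100 highest peaks 4 had their summit at a member's start: those of mRpL41 (signal 1124, rank 5), mRpS23 (957, rank 11), mRpS10 (936, rank 12) and mRpL23 (862, rank 17). In all, 94 of 13968 genes had a start summit among those 100 peaks. No other member came near that height: the next start peak, at mRpL24, had a signal of 369 and rank 122. The median of the highest peak was 131 over the 29 bound members, against 109.6 over all 3699 bound genes, 146 over the bound cytosolic ribosomal genes and 81.0 over the bound oxidative phosphorylation genes.

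Among large-subunit genes, mRpL41, whose product has no bacterial counterpart, had the highest peak, at 2R:15217624-15217875 with its summit 128 bp upstream of the start. It was also the highest in each replicate's ranked list among the members, with 660 in replicate 1 and 468 in replicate 2. No other gene starts within 500 bp of that summit, so this is the tallest of the 4 and the one in which the member is alone. The peak of mRpL23, at 3L:2373482-2373735, had 481 and 386 in replicates 1 and 2. Its summit lay 87 bp inside the gene, the 1 start summit downstream of a member's start, and CG9004 starts 24 bp from mRpL23 on the other strand. The protein of mRpL23, with those of mRpL24, mRpL22 and mRpL4, lines or surrounds the exit of the tunnel through which the new polypeptide leaves the ribosome, as known from bacterial and mammalian ribosomes.

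Both small-subunit genes with a tall peak shared it with a neighbour that starts nearer to the summit. For mRpS23, another protein without a bacterial counterpart, the peak at 2L:13835336-13835583 had 517 and 442 in replicates 1 and 2. Its summit lay 384 bp upstream of mRpS23 and 108 bp from the start of CenG1A, which encodes an Arf GTPase-activating protein. For mRpS10, part of the head of the small subunit, the peak at 3R:15229422-15229635 had 517 and 426. There the summit was placed midway, 130 bp from mRpS10 and 127 bp from Art3, an arginine methyltransferase gene, and to which of these genes such a peak belongs cannot be told apart.

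Sequence under the start summits was AT-rich, with a mean GC content of 34.3% ± 7.62 (SD over windows) in the 201-base windows centred on the 16 summits. The stretches below are those around the start summit for 7 of the 12 bound members with the highest peaks anywhere in their 2 kb neighbourhood, on the strand of the member and 5′ to 3′, read from the RefSeq Release 6 genome in dm6 coordinates. Each is 101 bases long and centred on the summit, except that of mRpL23, which is shortened to 56 bases outside untranslated sequence. Of the other 5 members, 4 have no start summit, and the stretch of mRpL41, the tallest peak, is not shown. The 7 stretches are given so that the sequence under 3 of the 4 peaks above 800 can be set beside that under lower ones. Capitals mark matches, on either strand, to 15 fixed words, among them TAATTA, the core recognised by paired-class homeodomains, and ACAGTG, which an earlier analysis found often at summits of these data.
mRpS23 (2L:13835406-13835506, minus strand): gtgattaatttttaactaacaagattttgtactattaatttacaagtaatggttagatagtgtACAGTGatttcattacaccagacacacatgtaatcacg
mRpS10 (3R:15229485-15229585, plus strand): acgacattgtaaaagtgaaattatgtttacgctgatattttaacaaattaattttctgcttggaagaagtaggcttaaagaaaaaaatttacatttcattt
mRpL23 (3L:2373541-2373596, minus strand): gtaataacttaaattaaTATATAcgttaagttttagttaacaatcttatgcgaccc
mRpL24 (2L:4945455-4945555, minus strand): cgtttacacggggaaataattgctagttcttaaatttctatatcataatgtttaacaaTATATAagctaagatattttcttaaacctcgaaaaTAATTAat
mRpL20 (3L:13018059-13018159, minus strand): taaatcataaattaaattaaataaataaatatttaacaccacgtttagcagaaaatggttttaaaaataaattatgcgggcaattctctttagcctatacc
mRpS2 (2L:4850543-4850643, minus strand): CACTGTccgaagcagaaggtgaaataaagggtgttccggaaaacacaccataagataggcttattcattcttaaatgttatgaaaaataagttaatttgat
mRpS24 (3R:24163811-24163911, minus strand): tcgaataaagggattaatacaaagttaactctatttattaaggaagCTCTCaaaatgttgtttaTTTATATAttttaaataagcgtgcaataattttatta

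In these stretches mRpS23 and mRpS2 each held ACAGTG or its reverse complement, mRpL24 held TAATTA, mRpL23, mRpL24 and mRpS24 held TATATA, a word included as a control for AT content, and mRpS10 and mRpL20 held none of the words. That of mRpS24 also held the TATA box word TATAAA, overlapping TATATA, and the GAGA factor word GAGAG, both on the opposite strand. In the 201-base windows centred on all 35 summits, the mean GC content was 33.9% ± 6.17 (SD over windows), against 37.3% ± 7.54 in the 1387 windows of the list at promoters. TAATTA was in 4 of the 35 windows (11.4%), against 16.5% of those promoter windows. It was in 20.4% of all promoters, but these were searched over 300 bases, a longer stretch with more places for a match. ACAGTG was in 7 of the 35 (20.0%), against 19.9% of the promoter windows. The DRE TATCGATA, a core promoter element bound by Dref, was in 3 (8.57%), against 6.06%, at mRpL32 and in the separate windows of both mRpL39 summits. Among the 16 windows at member starts alone, ACAGTG was in 5 (31.25%, 14.2 to 55.6%) and the DRE in 3 (18.75%, 6.59 to 43.0%). CGATA, a part of the DRE, was in 9 of the 16 (56.25%, 33.2 to 76.9%), against 35.9% of promoter windows. Among the words less frequent than in promoter windows were TAATTA, in 2 of the 16 (12.5%), and GAGAG, in 3 (18.75%, against 21.8%). Over all 35 windows GAGAG was instead in 10 (28.6%), above the share of promoter windows. No match to a word says only that these letters are not in the window.

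The lower peaks at the exit-tunnel genes differed in their place. For mRpL24 the signal was 206 in replicate 1 and 164 in replicate 2, in a peak at 2L:4945431-4945586. Its summit lay 144 bp upstream of mRpL24 and 74 bp from betaggt-I, which encodes a subunit of a protein prenyltransferase. The mRpL4 peak, with no other start within 500 bp, had a signal of 114.9 in the series-wide list, with 47.9 in replicate 1 and 65.4 in replicate 2, and a summit 89 bp upstream. At mRpL22 the only summit lay 1682 bp upstream, 294 bp from a start of if, an integrin gene, with a signal of 87.8. Of the 8 exit-tunnel genes in the list used here, 4 were thus bound (50%, 21.5 to 78.5%), against 26.5% of all protein-coding genes. A start summit was present for 3 of them, and mRpL17, mRpL44, mRpL45 and mRpL47 were not bound.

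The lists for other structural regions of the large subunit held only 4 to 6 genes, too few to rank the regions by their share bound. Each interval below holds the 26.5% of all protein-coding genes that were bound. In the central protuberance, the top of the large subunit, 3 of 5 genes were bound (60%, 23.1 to 88.2%). Of these mRpL18 had a start summit, 127 bp upstream and 107 bp from Taz, a cardiolipin remodelling gene, with a signal of 57.8 and 38.7 and 31.1 in replicates 1 and 2. The summit counted for mRpL46 had a signal of 334, with 166 in replicate 1 and 169 in replicate 2, but lay 1912 bp upstream, 106 bp from the start of PolD2, a DNA polymerase subunit gene. That of mRpL40 (153, with 97.1 and 54.8) lay at mgr, a prefoldin subunit gene. Of 6 stalk genes 2 were bound (33.3%, 9.68 to 70.0%). The summit at mRpL53 lay 45 bp upstream of the gene and equally far from a start of CG33155, and AGO1 also starts within 500 bp of it. Its signal was 55.4, with 31.8 and 24.6 in the replicates. The summit of mRpL12 lay 1934 bp away at GNBP3 with a signal of 76.7. Of 4 genes around the peptidyl transferase centre, mRpL27 alone was bound (25%, 4.56 to 69.9%). It was bound through a summit at the start of the cytosolic ribosomal gene RpL27A, with a signal of 158 and 57.6 and 94.5 in replicates 1 and 2. In that peak replicate 2 was the higher, which was so for 7 of the 35 member peaks. Replicate 1 was the higher in 28 of the 35, against 58.6% of 3204 peaks of the list.

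Members with more than 1 summit were mRpL34 (3), mRpL20, mRpS24, mRpL39 and mRpL50 (2 each). Around mRpL34 all summits were nearest to Dg, the dystroglycan gene on the other strand. The one 232 bp upstream of mRpL34 had a series-wide signal of 117, with 80.8 in replicate 1 and 31.2 in replicate 2, and those further upstream, in an intron of Dg, had 138 and 66.7. The ratio of 2.59 between the replicates at the first of these was the highest of the member peaks. At mRpL20 a start summit, 242 bp upstream and 157 bp from the methyltransferase gene Icmt, and a second 1943 bp downstream, at CG11267, had nearly equal signals of 234. The start summit had 129 and 104 in replicates 1 and 2, and the other 138 and 98.8. At mRpS24 the higher peak (165, with 104 and 66.4) lay at TBC1d7, and the start summit (98.0, with 52.5 and 39.0) lay 316 bp upstream and 105 bp from Apc2. The 2 peaks each of mRpL39 and mRpL50 overlapped and matched the same replicate peak, so the replicate signals do not separate them. At mRpL39, whose protein resembles a tRNA synthetase, the summits had 64.7 and 16.5, lay 77 and 291 bp upstream, and shared the region with the proteasome gene Prosbeta2. At mRpL50 they had 87.2 and 6.57 and lay at RpL18 and Neos.

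The other start summits of the small subunit were at mRpS2 and mRpS6. For mRpS2 the peak at 2L:4850451-4850734 had a signal of 206, with 111 in replicate 1 and 100.1 in replicate 2, and its summit lay 174 bp upstream and 48 bp from Mon1, a vesicle traffic gene. At mRpS6, in the platform of the small subunit, the summit lay 81 bp upstream, nearer to mRpS6 than to its neighbour Cip4, with a signal of 109 and 67.9 and 41.0 in the replicates. The last bound small-subunit gene, mRpS9, spans 13391 bp, and its summit, 6984 bp into the gene, lay 139 bp from a start of wtrw, a TRP channel gene (57.5, with 27.3 and 26.0). In all, 6 of 26 small-subunit genes were bound (23.1%, 11.0 to 42.1%) and 5 had a start summit (19.2%), against 23 of 47 large-subunit genes bound (48.9%, 35.3 to 62.8%) and 10 with a start summit (21.3%). The gap in bound genes was 6 of 26 against 20 of 47 in replicate 1, and 7 of 26 against 14 of 47 in replicate 2, where the shares were 26.9% and 29.8%. The difference between the subunits was not tested. In the human ribosome the proteins named S30 and S18A sit in the large subunit, and neither mRpS30 nor mRpS18A was bound.

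The remaining bound large-subunit genes had series-wide signals from 54.5 to 250. With a start summit there was mRpL32, at 111 bp upstream, with 131 in the series-wide list and 81.1 and 46.8 in replicates 1 and 2. That summit lies between mRpL32 and qless, a gene of coenzyme Q synthesis. Bound in their neighbourhood only were mRpL28 (250, with 135 and 121 in the replicates), mRpL13 (195, with 87.2 and 111), mRpL51 (100.4, with 56.9 and 38.3), mRpL19 (82.3, with 43.5 and 41.0), mRpL55 (75.5, with 43.5 and 34.4), mRpL33 (70.3, with 49.2 and 24.8) and mRpL49 (54.5, with 28.7 and 28.3). The summit at mRpL33 lay in an intron of norpA, the phospholipase C gene of vision, and that of mRpL49 at Brms1. By the highest peak of each bound member, the lowest were mRpL49, mRpL53 and mRpS9, with signals between 54.5 and 57.5, near the foot of the list at ranks 2782 to 2920 of 3250.

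**Figure D3:**
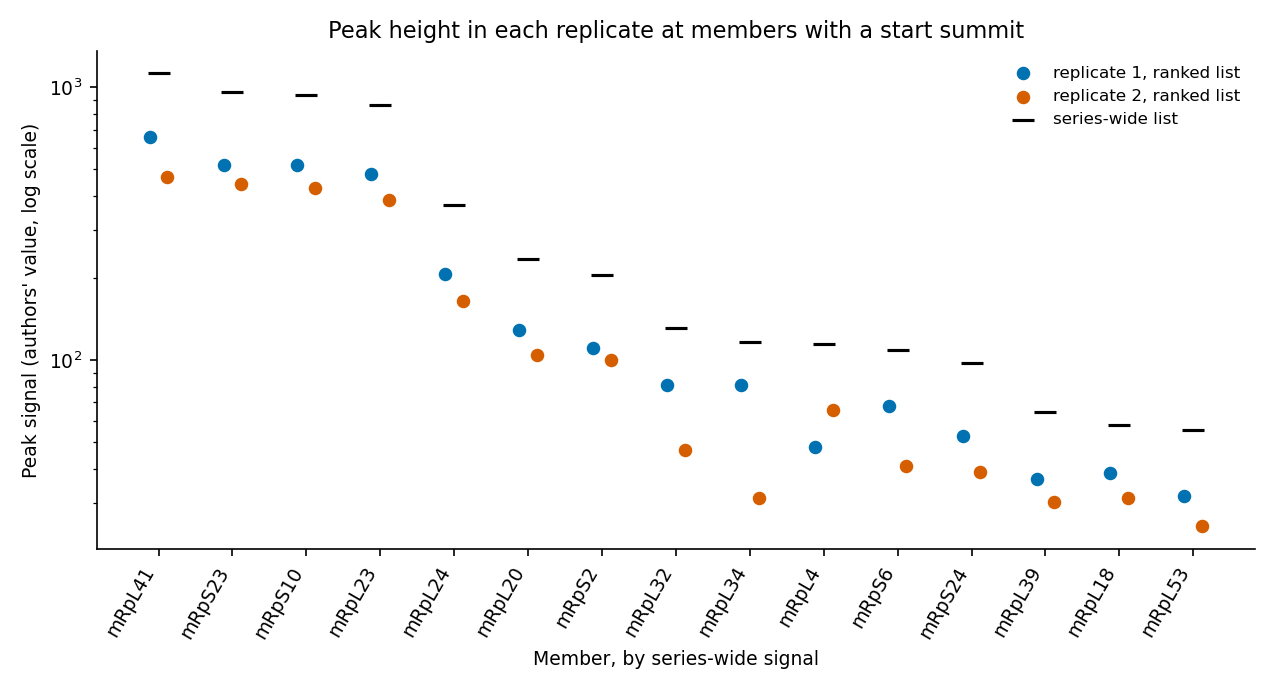
Authors' peak signal (log scale, y axis) of the highest start peak of the 15 members with a start summit, ordered by their series-wide signal (x axis): points give the highest overlapping peak in the ranked list of replicate 1 and of replicate 2, and dashes the series-wide value. Replicate 1 is above replicate 2 in 14 of the 15, and mRpL4 (47.9 and 65.4) is the exception. Over the series-wide list, replicate 1 is the higher in 58.6% of 3204 peaks.

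Recovery in the replicates went with height. The series-wide list comes from the alignments of both replicates, so its heights and this recovery are not independent. Of the 35 member peaks 20 overlapped a peak in each replicate's own thresholded list (57.1%), against 50.6% of all 3250 peaks. A further 7 were in the list of replicate 1 alone, 2 in that of replicate 2 alone and 6 in neither (17.1%, against 24.9% of all peaks). Of the 16 start peaks, the 12 with a series-wide signal of 98.0 or more were in both lists and the 4 lower ones were not. Of the 29 bound members 17 were bound in both replicate lists, 7 in replicate 1's alone (mRpL12, mRpL18, mRpL19, mRpL22, mRpL33, mRpL51 and mRpL55), mRpL50 in replicate 2's alone, and mRpL39, mRpL49, mRpL53 and mRpS9 in neither. Going the other way, mRpL37 was bound in both replicate lists and not in the series-wide list, with start peaks of 47.0 and 11.9 in the ranked lists, mRpS26 in replicate 1's list alone (48.8), and mRpS7 and mRpS16 in replicate 2's alone. The other series-wide list held 30 bound members, 28 of them shared, without mRpL49 and with mRpL21 and mRpS16. Over the 35 peaks, the signal of replicate 1 over that of replicate 2 was 0.610 to 2.59 with a median of 1.23, and 34 were within a factor of 2. Its median over 3204 peaks of the list was 1.07. Neither the conservative list nor either replicate's list had a summit for 40 members, a count not made over all genes. Both replicate lists had one for 24.7% of members, against 16.7% of all genes.

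Signal below the threshold was read for every member from the ranked lists, which are longer and less strict. A ranked peak within 500 bp of a start was present for 50 of 73 members in replicate 1 (68.5%, against 65.8% of all genes) and for 60 in replicate 2 (82.2%, against 74.7%). The median signal of those peaks was 17.5 in replicate 1, against 15.2 over all genes, and 15.8 in replicate 2, against 16.7. For the 93 cytosolic ribosomal genes the medians were 56.3 and 53.4. The typical member start was thus at the level of the typical gene in both replicates, and the tall peaks lay at the starts of a few members. Of these tall peaks, only that of mRpL41 had no other gene's start within 500 bp. Members with a start summit had 31.8 to 660 in replicate 1 and 24.6 to 468 in replicate 2. The 44 members with no summit had at most 48.8 and 29.7, with medians of 15.4 and 14.7 over the 27 and 36 that had a ranked peak, and the groups overlap at the low end. The 14 members bound in their neighbourhood only had medians of 12.4 and 9.85 at their own start, over 8 and 9 genes. For 7 members neither replicate had a ranked peak at a start, a count not made over all genes.

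**Figure D4:**
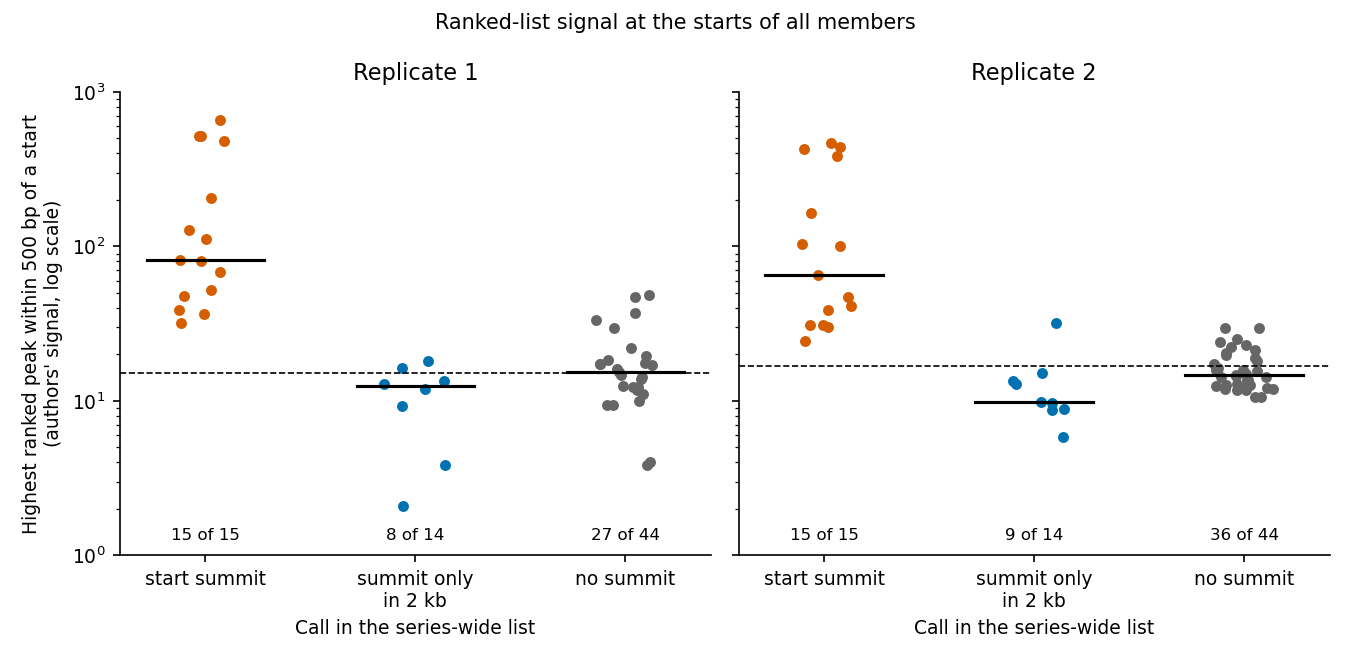
Highest ranked-list peak within 500 bp of a start (authors' signal, log scale, y axis) for each member, in replicate 1 (left) and replicate 2 (right), by its call in the series-wide list (x axis). Bars are medians over genes with a peak, whose number stands under each group, and the dashed line is the median over all genes (15.2 and 16.7): the members with a start summit have medians of 81.1 and 65.4, and those without a summit 15.4 and 14.7.

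Among other genes of mitochondrial gene expression, 6 of 41 were bound (14.6%, 6.88 to 28.4%), against 26.5% of all protein-coding genes, which lies inside that interval. A summit at the own start was present for 1 of the 41 (2.44%, 0.432 to 12.6%), against 13.2% of all genes. None of 8 translation factor genes was bound, nor were tko, bonsai and CRIF. Of 15 mitochondrial tRNA synthetase genes, LeuRS-m (346), CysRS-m (386) and AsnRS-m (72.3) were bound, none of them at its own start. Of 15 transcription and RNA genes, PNPase had a summit 80 bp from its start and a signal of 1017, while mTerf5 (271) and mldr (86.5) were bound at a distance. PNPase degrades and processes mitochondrial RNA, and its peak is of the height of the 4 tallest member peaks. The difference between these lists and the members was not tested, and 12 of the 90 symbols listed for mitochondrial and structural groups matched no gene and were not used here.

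A 6-base word was frequent in the promoters of members with and without a summit. The E-box CAGCTG, a word read by basic helix-loop-helix proteins and its own reverse complement, lay between 250 bases before and 50 bases after the start in 40 of 73 member promoters (54.8%, 43.4 to 65.7%), against 17.6% of all 13968 promoters. It was in 9 of the 15 members with a start summit (60%), 9 of the 14 bound in the neighbourhood only (64.3%) and 22 of the 44 with none (50%). In the lists of other mitochondrial gene expression genes, of which few were bound, 21 of 41 promoters had it (51.2%), as had 19 of 66 oxidative phosphorylation promoters (28.8%) and 9 of 93 cytosolic ribosomal promoters (9.68%). The word was as frequent among members with a divergent start (29 of 53) as among those without (11 of 20), and similar in the large subunit (27 of 47) and the small (13 of 26). Of the 45 matches, 36 lay within 50 bases of the start (80%), against 49.7% of 2777 matches in all promoters, and their median position was 2 bases after the start. That 50-base range was chosen after the values were seen. In the windows around summits the word was in 8 of 35 (22.9%) and in 7 of the 16 at member starts (43.8%), against 12.9% of promoter windows, and within 50 bases of the summit it was in 2.86% of the 35.

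The stretches below show it in 6 members with a start summit and then in 5 without any summit, so that the bases around it can be compared. Each has 28 bases on the strand of the member, 5′ to 3′, with CAGCTG in capitals, from the same genome.
mRpS2 (2L:4850414-4850441, minus strand): acactacccacCAGCTGtttaccaaaat
mRpS6 (3L:4364553-4364580, plus strand): tttccttgcatCAGCTGttaacactatc
mRpL32 (3R:31252845-31252872, plus strand): tatcgatagcaCAGCTGtttcctcttgc
mRpL24 (2L:4945325-4945352, minus strand): tcagttctcaaCAGCTGattgcaagccg
mRpS24 (3R:24163509-24163536, minus strand): gtcacgtcaatCAGCTGttgctggacgc
mRpL23 (3L:2373716-2373743, minus strand): tggttgacaatCAGCTGtttaaaacaag
mRpS21 (3R:13381791-13381818, minus strand): gtgatattcatCAGCTGtttagcagtac
mRpS34 (3L:16348065-16348092, plus strand): gccagccggcaCAGCTGttcgaccttcc
mRpL11 (3R:14511822-14511849, plus strand): agcaataccatCAGCTGttgctgcttct
mRpL35 (3R:22023511-22023538, plus strand): tgaatggcacaCAGCTGactgttacgcg
mRpS25 (X:14582960-14582987, minus strand): agccgaccgatCAGCTGttcgcattaca

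**Figure D5:**
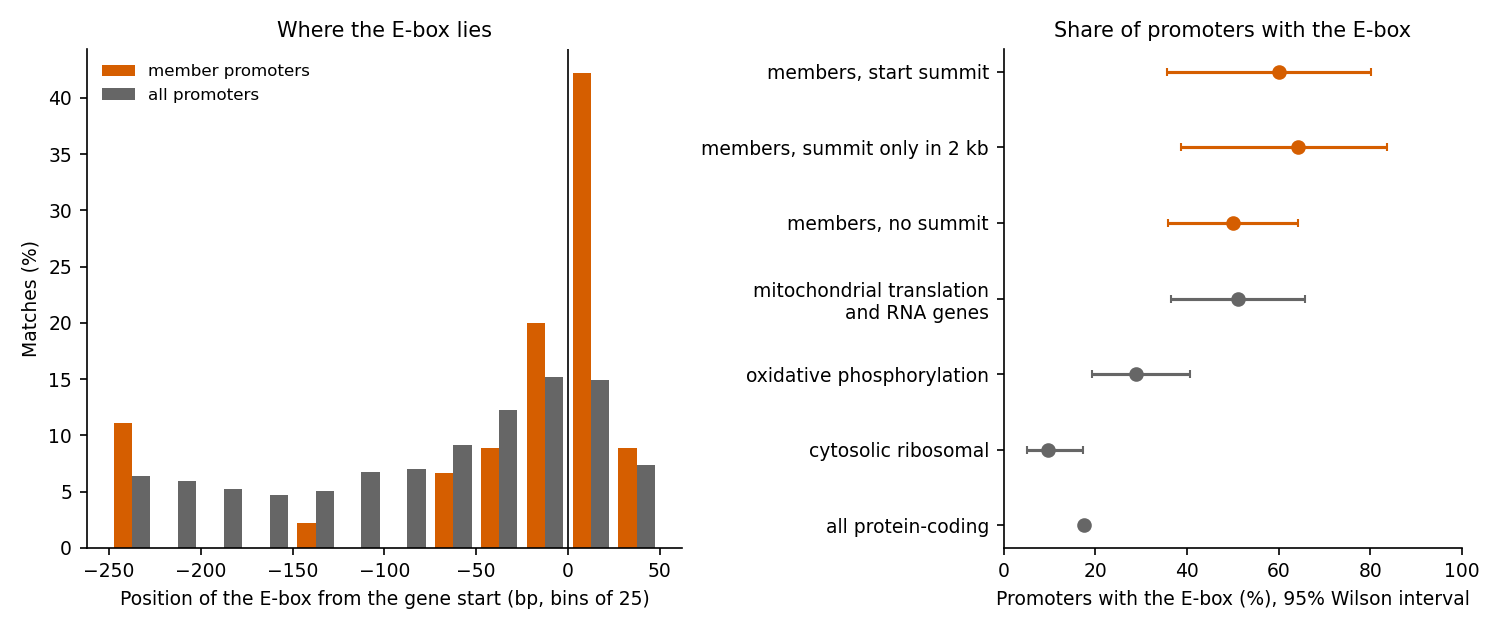
Left, position of CAGCTG matches from the gene start in bins of 25 bp (x axis) as a share of all matches (%, y axis), for the 45 matches in member promoters and the 2777 in all promoters. Right, share of promoters with the word (%, x axis, with 95% Wilson intervals) by group: the 3 groups of members lie at 60%, 64.3% and 50%, the other mitochondrial gene expression genes at 51.2%, and all genes at 17.6%.

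The other words had smaller counts in the member promoters, apart from the short word CGATA, and none of these differences was tested. The DRE was in 15 of 73 (20.5%, 12.9 to 31.2%), against 9.36% of all promoters, and its part CGATA, which the protein BEAF-32 also binds, in 43 (58.9%), against 47.3%. M1BP's word GGTCACACT was in 8 (11.0%), against 6.04%. TAATTA was in 15 (20.5%), against 20.4%, and ACAGTG in 13 (17.8%), against 13.9%. AAGGTCA, read by the estrogen-related receptor, and CCGGAAG, an Ets core, were in no member promoter, against 2.11% and 1.09% of all. GCATGCGC, an element of the NRF1 relative Ewg, was in 1. Lower than in all promoters was GAGAG, the word of the GAGA factor, in 12 (16.4%), against 29.7%. TATAAA was in 34 (46.6%), against 45.8%, and TATATA in 16 (21.9%), against 23.8%. Of the remaining words, ACACTG was in 20 (27.4%), against 18.9%, CANCNCTA, a core promoter element, in 16 (21.9%), against 15.5%, and the E-box CACGTG in 5 (6.85%), against 4.2%. All 15 were searched on both strands, CGATA lies within the DRE, other words can overlap, and a match is a description of letters and not of binding.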

How the data were processed

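ChIP sequencing was done on 2 biological replicates, both in 1 group. The authors deposited peak lists on dm6 thresholded or ranked by the irreproducible discovery rate (IDR), per the file headers and labels. Names of the aligner and peak caller were not given in the sources used here. No file gives read depth. The values used were the authors' signal per peak, on an unstated scale, their deposited score (lowest 830 in the series-wide list used) and the deposited −log10 global IDR (lowest 2.0). Replicate values are those of the highest overlapping peak in each replicate's ranked list. A further 8 columns of values for each replicate in the series-wide ranked list, not named by replicate, were not used.

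Genes came from Ensembl release 115 (BDGP6.54) and sequence from the RefSeq Release 6 genome. Summits, distances, words and Wilson intervals were computed with Python 3.11.15, numpy 2.4.6, pandas 2.3.3 and scipy 1.17.1, and the counting was tested on simulated data. The members, gene lists and words were chosen with earlier results of these data known. The rule for named genes takes every bound member, with full values for the 12 with the highest peak, the 3 with the lowest, those with more than 1 summit and those whose call differs between lists, every bound gene of the other lists, and neighbours that share a summit. Structural roles were assigned from symbols. Alternatives were other peak lists, flanks, start distances, windows and overlaps.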

Additional observations from a re-analysis of the deposited data

How the results depend on the processing

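The count of bound members, 29 in the series-wide list, depends most on the distance allowed. It was 2 with the summit inside the gene (2.74%, against 9.40% of all genes), 18 within 500 bp (24.7%, against 19.2%) and 46 within 10 kb (63.0%, against 51.6%). Giving each summit to its nearest start alone left 8 members (11.0%, against 17% of all genes), and the 50% of peaks with the highest signal left 18 (24.7%, against 16.2%). The member share was thus below that of all genes with the summit inside the gene and with the nearest start, the reverse of 39.7% against 26.5% in the series-wide list, and above it in the remaining settings. Leaving out either replicate gave 21 to 26. The count with a summit at the own start, 15, was 12 to 17 over its alternatives. The median signal of the highest peak, 131, was 81.0 to 94.5 when either replicate was left out, where the values come from single-replicate lists on a scale of their own. With divergent starts taken within 250 bp, 25 members had such a start, against 14.2% of all genes. The share of summit windows with the DRE was 2.86% within 50 bp of the summit. Of 114 alternatives over 20 results, 95 were counted as leaving the value much the same and 19 as moving it. For the shares of summit windows with a word, a value had moved when it left the 95% Wilson interval of the main value. No paired analysis was possible because there is 1 group. Precision is limited by 73 genes, 35 summits and unknown read depth.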

Other observations

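The bases around the E-box CAGCTG in member promoters were looked at after its position had been seen, and are given as values without a test. Of the 45 matches, 37 were preceded by A or T on the member's strand (82.2%), against 65.4% of matches in all promoters, and 36 had T as the base 2 places after the word (80%), against 50.7%. The word M1BP reads, GGTCACACT, was in none of the 15 promoters of members with a start summit (0 to 20.4%). It was in 8 of the 58 other member promoters (13.8%, 7.16 to 24.9%). Over all genes it was in 8.66% of promoters with a start summit, against 6.04% of all promoters, the other direction. The DRE was in 5 of those 15 (33.3%, 15.2 to 58.3%) and in 10 of those 58 (17.2%, 9.64 to 28.9%). Over all genes these DRE shares were 13.0% with a start summit and 9.36% of all promoters. For both words the members' intervals overlap, and the differences were not tested.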
